A study of Mus musculus with 12 samples.

Results

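Gdpd3, Clba1, Atp6v0e2, Cadm1, Chst10, Klhdc4, Gm8210, Rps2 and Rps18 were described across 12 RNA libraries of mouse peritoneal macrophages. These 9 genes, of 12339 in the count table, were picked by name because their CPM (counts scaled to library size) fall into a low and a high level with a gap between them. The levels that chose the genes are therefore given as a description, with no test. All 9 names were found in the table, 1 row each.

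The mice were wild type (WT) or of a line labelled meKO; the title of the series speaks of protein kinase C epsilon in myeloid cells, a kinase encoded by Prkce, and the recombinase that drives the deletion is not given in the sources used here. All animals, WT and meKO alike, received AAV8PCSK9 at 8 weeks of age, a viral vector that lowers the LDL receptor on hepatocytes. They then stayed on chow or were given a high-fat "Western" diet (HFD), and thioglycolate-elicited macrophages were washed from the peritoneum after 4 weeks. The 4 groups, WT and meKO each on chow or HFD, had 3 libraries each. The labels do not say whether a library holds 1 animal or a pool, so the spread between libraries may be technical in part. In such bulk samples, fewer cells of a type and less RNA per cell cannot be told apart.

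A step across libraries differs from an ordinary response, because the libraries fall on either side of a gap rather than around a group mean. Each side can itself be broad. The genes described here have unrelated roles. Gdpd3 belongs to the glycerophosphodiester phosphodiesterases and acts as a lysophospholipase D, Clba1 carries a clathrin-binding box, Atp6v0e2 is a subunit of the membrane part of the proton pump that acidifies lysosomes, Cadm1 is an adhesion molecule of the immunoglobulin superfamily, Chst10 is the sulfotransferase that makes the HNK-1 carbohydrate, and Klhdc4 is named for its kelch repeats. Rps2 and Rps18 are proteins of the small ribosomal subunit, and Gm8210 is a processed pseudogene of Rpl29, a protein of the large subunit: a copy of the messenger RNA inserted back into the genome.

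Gm8210, Rps2 and Rps18 come from families with many near-identical copies, so the letters that tell a gene from its copy are shown first. In the GENCODE M21 transcripts, the Rpl29 coding sequence of 480 bases matched Gm8210 at 477 bases with no gap. The differences, counted from the A of the Rpl29 start codon as 1, were C72A, C300T and T423C. The windows of 41 bases around each are printed because a read within this stretch that covers none of these letters fits both genes equally; the differing base is in capitals.

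Rpl29 bases 52 to 92: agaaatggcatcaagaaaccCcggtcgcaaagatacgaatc
Gm8210 bases 52 to 92: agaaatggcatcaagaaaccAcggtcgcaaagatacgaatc
Rpl29 bases 280 to 320: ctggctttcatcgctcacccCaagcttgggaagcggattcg
Gm8210 bases 280 to 320: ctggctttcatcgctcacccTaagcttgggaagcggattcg
Rpl29 bases 403 to 443: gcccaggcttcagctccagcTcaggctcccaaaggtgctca
Gm8210 bases 403 to 443: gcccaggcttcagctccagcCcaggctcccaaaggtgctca

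The Rps18 coding sequence of 456 bases matched Gm11361, a copy on chromosome 13 (28257528 to 28258134, GRCm38), at 453 bases. The differences were T11A, A171C and A337C, counted from the A of the Rps18 start codon. Gm11361 is not among the genes of the count table. Its windows are shown for the same reason, the differing base again in capitals, with positions in each transcript model (for Rps18, in its coding sequence).

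Rps18 bases 1 to 31: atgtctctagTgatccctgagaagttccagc
Gm11361 bases 109 to 139: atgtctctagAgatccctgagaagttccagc
Rps18 bases 151 to 191: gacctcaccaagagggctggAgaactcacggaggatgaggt
Gm11361 bases 259 to 299: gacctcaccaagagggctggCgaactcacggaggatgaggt
Rps18 bases 317 to 357: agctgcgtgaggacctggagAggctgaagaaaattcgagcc
Gm11361 bases 425 to 465: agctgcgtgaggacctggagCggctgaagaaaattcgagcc

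Words of 50 bases were compared with every other GENCODE gene. In Gdpd3, Clba1, Atp6v0e2, Cadm1 and Chst10, 0% of the words of the coding sequence occurred elsewhere, and in Klhdc4 8.81% did, all in the pseudogene Gm5303. In Gm8210 100% of the words were shared, with 81 other genes of which 79 are pseudogenes. Rps2 shared 77.9% of its words with 71 pseudogenes, and Rps18 shared 87.7% with 11 genes. Such sharing is common in the family: over the 33 listed genes of the small ribosomal subunit the median was 87.7%, and Rps18 ranked 17 and Rps2 22 by shared words. How the counting treated reads that fit several genes is not given in the sources used here, so the levels of Gm8210, Rps2 and Rps18 are uncertain.

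The genes lie on 7 chromosomes (RefSeq, GRCm38.p6). Gdpd3 (Entrez gene 68616) is at chromosome 7, 126766414 to 126775645, and Clba1 (217887) at chromosome 12, 112808975 to 112816245. Atp6v0e2 (76252) spans chromosome 6, 48537569 to 48541801, and Cadm1 (54725) spans chromosome 9, 47530170 to 47862280. Chst10 (98388) and Gm8210 (666642) share chromosome 1, at 38863867 to 38898177 and 43189052 to 43189773, the latter inside the span of Fhl2 on the opposite strand. Klhdc4 (234825) is at chromosome 8, 121796308 to 121829583, where Gm20388 and Gm20406 overlap it on the opposite strand. Rps2 (16898), overlapped by the antisense Snhg9, and Rps18 (20084) share chromosome 17, at 24718121 to 24721927 and 33951998 to 33955665. Although the set is meant to lie outside H2, the mouse histocompatibility complex, RefSeq lists H2-Ke3 as a synonym of Rps18, and its start was 44014 bases from that of H2-K1. For Rps18, then, the position goes against the label.

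Total counts per library ran from 25844958 to 37282772. Prkce stood at 2.01 to 4.44 CPM in the 6 WT libraries and 0.950 to 1.78 CPM in the 6 meKO libraries, without overlap. All 8 macrophage markers were listed. Lyz2 was 30482 to 53835 CPM in WT and 16293 to 21310 CPM in 5 meKO libraries, without overlap, and 69.3 CPM in meKO chow replicate 2. The other 7 markers summed to 5622 CPM in that library and 4969 to 6231 CPM in the other 11. Deviations of genes from their mean followed transcript length in WT chow replicates 1 and 2 (Spearman's rho 0.66 and 0.70 across 10922 genes, which are not replicates), against -0.49 to 0.16 in the other libraries. Summed mast cell markers ran from 57.8 to 358 CPM, both within meKO chow.

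The step was measured as the widest difference between neighbouring values when the 12 libraries were sorted by log2(CPM + 0.1), with at least 2 libraries on each side. CPM are scaled with TMM factors, edgeR's correction for composition. A gap of at least 1 log2 unit was found in 9 of the 9 genes, as the choice of the genes implies, and in 73 of the 11500 genes whose mean reached 1 CPM, or 0.635%. Over those 11500 genes the median gap was 0.19. Gdpd3 had the widest gap in the table, and Klhdc4 the narrowest of the 9, at 1.54 and rank 36. Outside the set, 27 genes had gaps at least as wide as that of Klhdc4, of which 11 lie on chromosome 17 and 9 have symbols that start with H2.

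**Figure D1:**
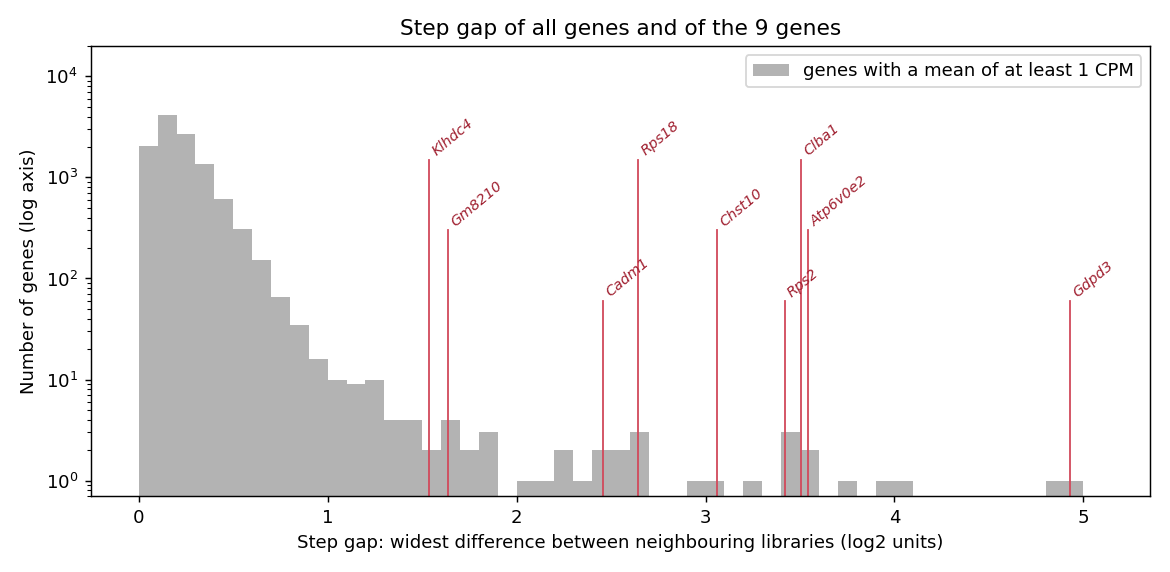
Step gap in log2 units (horizontal axis) against the number of genes in each bin of 0.1 (vertical log axis) for genes whose mean reached 1 CPM. Red lines mark the 9 genes, from Klhdc4 at 1.54 to Gdpd3 at 4.93.

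Gdpd3, the lysophospholipase D, had the widest step. In order of replicate number, as for the genes that follow, it was 90.1, 2.12 and 152 CPM in WT chow. The 3 WT HFD replicates stood at 111, 2.10 and 109 CPM. On the meKO side it was 2.49, 90.8 and 2.45 CPM on chow and 102, 2.86 and 90.4 CPM on HFD. Low and high libraries occurred in all 4 groups, so every pair of groups overlapped. Between 2.86 and 90.1 CPM no library was found, a gap of 4.93 log2 units. The 5 low libraries still held 61 to 91 counts each.

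Atp6v0e2, the proton pump subunit, also had both levels in all 4 groups. It stood at 0.396, 10.3 and 11.4 CPM in WT chow, and at 0.259, 11.2 and 0.271 CPM in WT HFD. In meKO chow the values were 0.383, 13.2 and 16.8 CPM, and in meKO HFD 13.0, 0.496 and 0.794 CPM. The split was 6 high against 6 low, with a gap of 3.54 log2 units. The low level rests on 8 to 20 counts per library and the high level on 316 to 488, so the depth of the low side of this gene is small.

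Cadm1, the adhesion molecule, was low in 4 libraries and high in 8. In WT chow it was 10.3, 202 and 95.4 CPM, and in WT HFD 90.5, 80.5 and 74.7 CPM. The meKO chow values were 89.6, 9.69 and 10.6 CPM, and those of meKO HFD 8.25, 63.2 and 59.0 CPM. WT HFD was the single group on one level only, lying above all 3 meKO HFD libraries. The gap was 2.46 log2 units, and the high side was broader (1.77 log2 units) than the low side (0.36).

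Chst10, the HNK-1 sulfotransferase, was low in only 2 libraries, WT chow replicate 1 and meKO HFD replicate 2. The WT chow values were 0.311, 7.74 and 22.0 CPM, and the WT HFD values 4.53, 4.65 and 4.36 CPM. In meKO chow it stood at 8.35, 7.19 and 7.98 CPM, and in meKO HFD at 3.33, 0.229 and 6.31 CPM. The low pair held 6 and 11 counts, against 122 to 665 in the others, and the gap was 3.06 log2 units. The high side spanned 2.69 log2 units.

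Clba1, the clathrin-binding gene, was high in 2 libraries of 1 group. WT chow libraries held 2.26, 2.48 and 2.35 CPM and WT HFD libraries 3.20, 3.55 and 3.34 CPM. The meKO chow libraries held 2.96, 3.31 and 2.14 CPM. In meKO HFD the replicates stood at 3.41, 82.2 and 41.4 CPM, so replicate 1 lay with the other groups. The gap was 3.51 log2 units. Neither the Clba1 nor the Chst10 step remained when 3 libraries were required on each side, where the widest gaps were 0.24 and 0.43.

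Klhdc4, the kelch repeat gene, was low in all 6 WT libraries. They held 10.5, 11.8 and 11.2 CPM on chow and 13.8, 13.7 and 15.8 CPM on HFD. The meKO chow libraries were all high, at 77.5, 45.9 and 54.5 CPM. On HFD the meKO libraries split, with 15.5 CPM in replicate 1 and 99.0 and 98.3 CPM in replicates 2 and 3. WT and meKO thus did not overlap on chow but did on HFD, where meKO replicate 1 lay within the WT range. The gap was 1.54 log2 units.

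Gm8210, the Rpl29 pseudogene, was high in 5 of 6 WT libraries and low in all 6 meKO libraries. WT chow replicates stood at 7.07, 51.7 and 78.1 CPM and WT HFD replicates at 172, 149 and 178 CPM. The meKO values were 10.5, 10.4 and 9.30 CPM on chow and 11.9, 16.6 and 10.2 CPM on HFD. WT chow replicate 1 lay below every other library. WT HFD lay above the remaining 3 groups, so its high side was spread over 1.79 log2 units, more than the gap of 1.64.

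Rps2, a protein of the small subunit, was low in 1 library of each group but meKO HFD. It stood at 246, 134 and 12.4 CPM in WT chow, 175, 11.7 and 196 CPM in WT HFD and 11.9, 165 and 284 CPM in meKO chow. In meKO HFD it was 365, 433 and 357 CPM, above every library of the other groups. The 3 low libraries lay within 0.08 log2 units of each other, while the high side spanned 1.69, and the gap was 3.42.

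Rps18, the second protein of the small subunit, was low in 6 libraries. WT chow replicates held 14.1, 1.44 and 1.92 CPM and WT HFD replicates 2.17, 2.07 and 2.17 CPM. In meKO chow the values were 1.78, 17.4 and 34.2 CPM, and in meKO HFD 20.8, 62.6 and 21.8 CPM. All WT HFD libraries were low and all meKO HFD libraries high, without overlap, while both chow groups held both levels. The gap was 2.65 log2 units, with 44 to 72 counts per library on the low side. The high side spanned 2.14 log2 units.

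**Figure D2:**
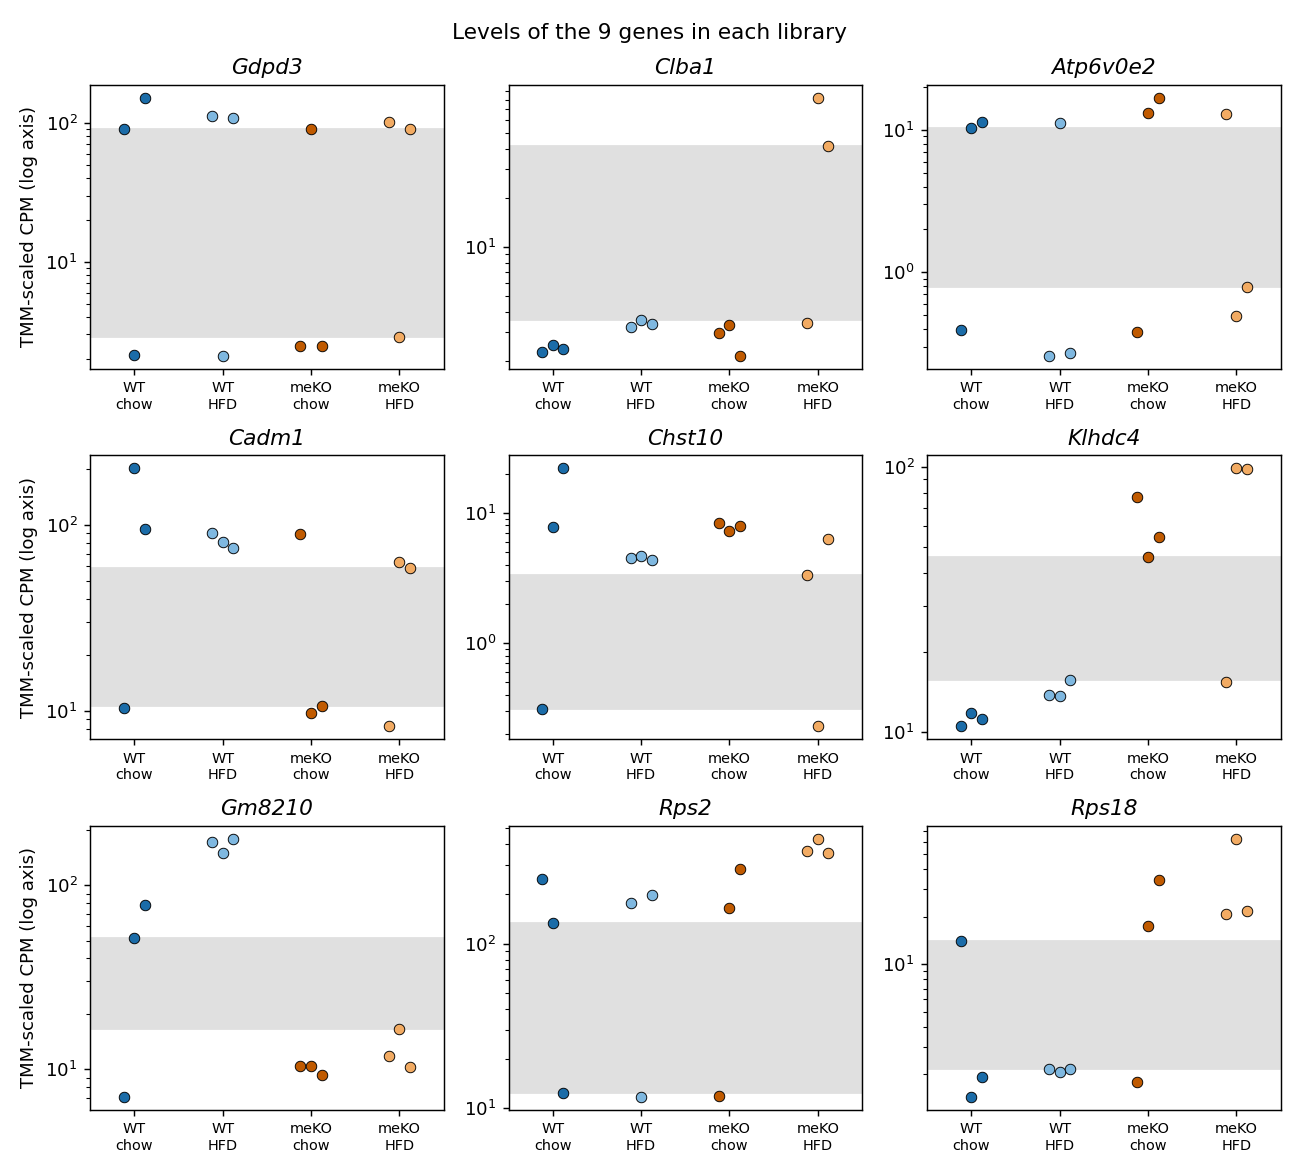
TMM-scaled CPM (log axis) of each gene in the 12 libraries, 1 point per library, by group; the grey band is the gap between the highest low and the lowest high library. Gdpd3 and Atp6v0e2 have points on both sides of the band in all 4 groups, and Clba1 has 2 points above it, both in meKO HFD.

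The genes were not high in the same libraries. Each library was high for 3 to 7 of the 9 genes, from 3 in WT chow replicate 1 and meKO chow replicate 1 to 7 in meKO HFD replicate 3. Libraries of 1 group lay on the same side for a median of 5.5 genes (3 to 9 over 12 pairs), and libraries of different groups for a median of 5 (1 to 8 over 54 pairs). WT HFD replicates 1 and 3 shared the side for all 9 genes. At the other end, WT chow replicate 3 and meKO HFD replicate 2 shared it for 1 gene. The library with little Lyz2, meKO chow replicate 2, lay on the same side as meKO chow replicate 3 for 8 of 9 genes.

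Some pairs of genes mirrored each other across libraries. Gm8210 and Rps18 lay on opposite sides in 11 of 12 libraries (Pearson's r of log2 CPM -0.72). Opposite sides in 10 libraries were seen for Cadm1 and Rps18 (r = -0.69), for Klhdc4 and Gm8210 (-0.57) and for Clba1 and Chst10 (-0.45). The most alike pairs shared the side in 9 libraries: Rps2 with Rps18 (r = 0.70), Clba1 with Klhdc4 (0.66), Cadm1 with Gm8210 (0.65) and Klhdc4 with Rps18 (0.57). No pair of the 9 genes lay on the same side, or on opposite sides, in all 12 libraries. These values describe 12 libraries that share depth and composition, over 36 pairs of genes.

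**Figure D3:**
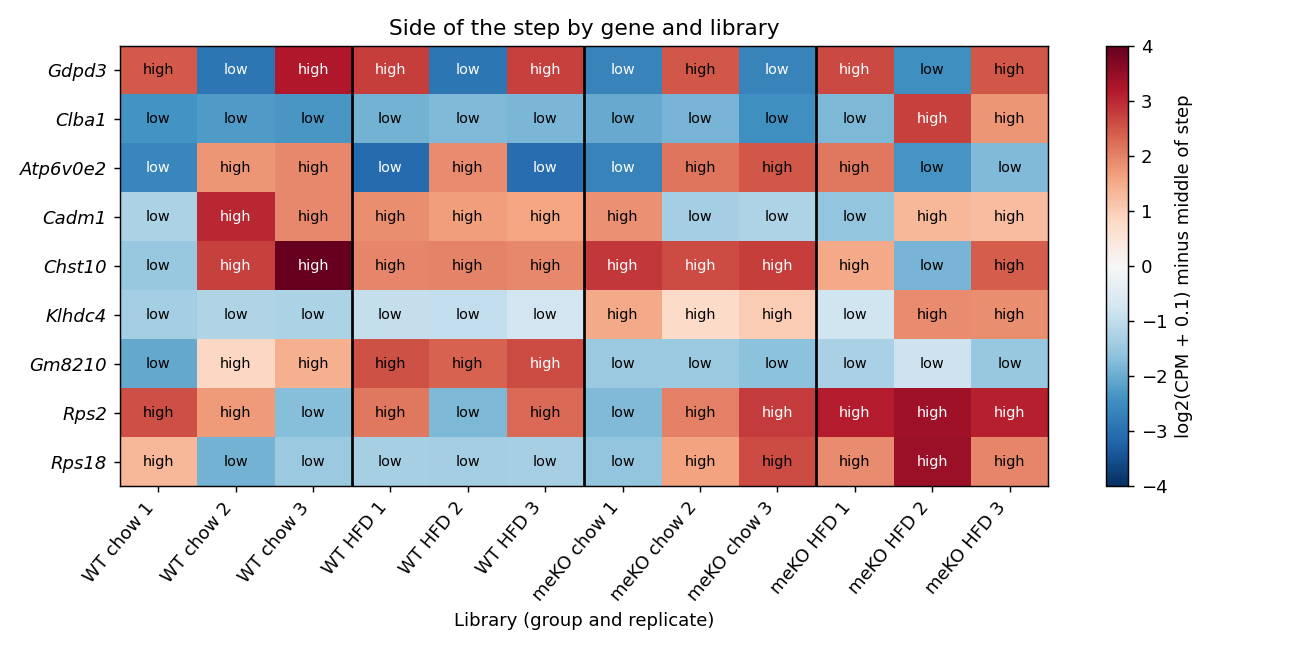
The 9 genes (rows) in the 12 libraries (columns, in order of group), coloured by log2(CPM + 0.1) minus the middle of the gene's step, with the side written in each cell. Columns within a group differ from each other, and WT HFD replicates 1 and 3 are the 1 pair of a group that is alike in every row.

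Rpl29, the parent gene of Gm8210, had a step of its own and is described because the 2 sequences shown above differ at 3 bases. Rpl29 was 130, 67.2 and 97.5 CPM in WT chow and 6.51, 6.89 and 6.65 CPM in WT HFD. It was 211, 197 and 171 CPM in meKO chow and 204, 322 and 221 CPM in meKO HFD. WT HFD, where Gm8210 was highest, thus lay below every other library for Rpl29, with a gap of 3.27 log2 units.

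Of the summed CPM of both genes, Gm8210 took 95.6% to 96.4% in the 3 WT HFD libraries. It took 43.5% and 44.5% in WT chow replicates 2 and 3, and 4.44% to 5.50% in WT chow replicate 1 and the 6 meKO libraries. The shares therefore fell into 3 narrow ranges with nothing between them. The sum itself ran from 119 to 339 CPM, 2.85-fold, while Gm8210 alone varied 25.2-fold and Rpl29 49.5-fold. Across the 12 libraries the log2 levels of Gm8210 and Rpl29 had a Pearson's r of -0.90, as a description of 2 genes that may share reads.

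**Figure D4:**
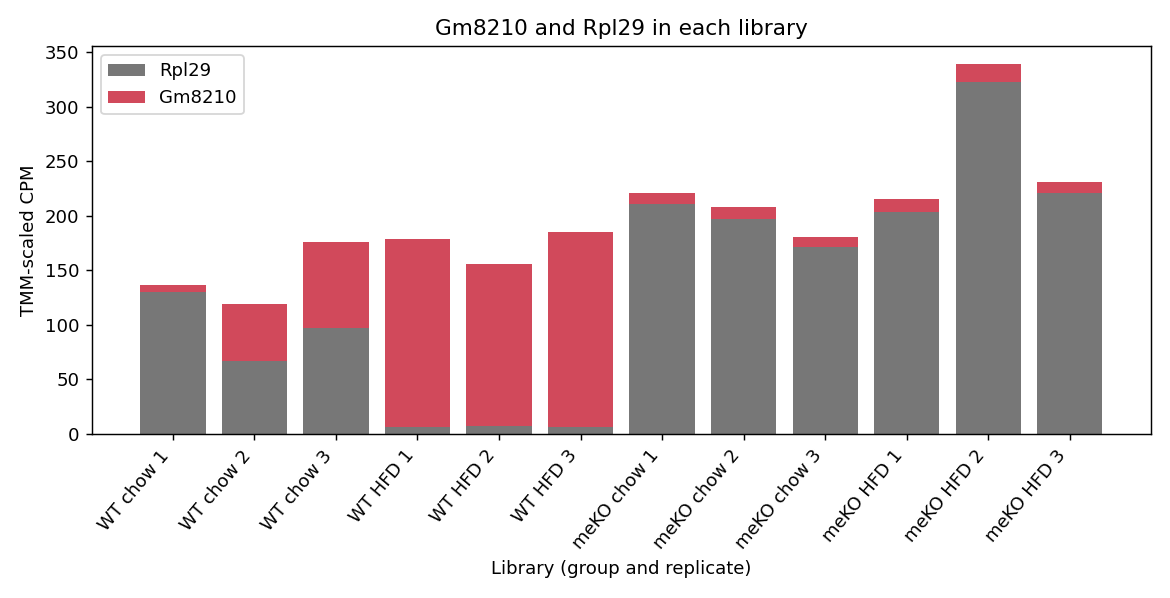
TMM-scaled CPM of Rpl29 (grey) and Gm8210 (red) stacked for each library, so that the height of a bar is their sum. Gm8210 makes up nearly all of the bar in the 3 WT HFD libraries, between 43.5% and 44.5% in WT chow replicates 2 and 3, and at most 5.50% in the other 7.

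For each of the 9 genes, the 3 genes most like it were named by Pearson's r of log2 CPM over the 12 libraries. Of these 27 genes 10 lie on the same chromosome as the gene they resemble, 16 split the 12 libraries at their own widest gap in the same way, and 7 had a gap of at least 1 log2 unit. Values of r ran from 0.80 to 0.996; having been picked as the highest, they are given with no test.

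For Gdpd3 the genes were Itgad (r = 0.92), Mapk3 (0.89) and Saal1 (0.83), all on chromosome 7. Mapk3, the kinase ERK1, ends 598 bases before Gdpd3 starts, and its levels of 135 to 236 CPM split the libraries in the same way as Gdpd3 with a gap of 0.15. On the other side, Ypel3 starts 1318 bases after the end of Gdpd3 (r = 0.51). Of the 20 genes with the largest absolute r with Gdpd3, 15 lay on chromosome 7, which holds 7.87% of the positioned genes whose mean reached 1 CPM.

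Rps18 was most like H2-T22 (r = 0.996), H2-T23 (0.996) and H2-Eb1 (0.97), genes of the histocompatibility complex on chromosome 17. H2-T23 ran from 29.5 to 608 CPM and H2-Eb1 from 6.58 to 388 CPM. All 3 split the libraries as Rps18 did. Chromosome 17 held 15 of the 20 genes with the largest absolute r, against 5.40% of all such genes. The genes on either side, B3galt4 (r = -0.42) and Vps52 (-0.68), start 2086 and 3781 bases from the start of Rps18 and had gaps of 0.12 and 0.20.

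Rps2 was most like Zfp97 (r = 0.96), a zinc finger gene on chromosome 17, Entrez gene 667847 (0.94) and Plxna4os1 (0.94), all with the same split of the libraries. Of its 20 closest genes 8 lay on chromosome 17. Its neighbours Tbl3 (r = 0.54) and Ndufb10 (0.43), the latter beginning 133 bases after the end of Rps2, had gaps of 0.19 and 0.17.

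Gm8210 was most like Entrez gene 100503055 (r = 0.99), Nudt16 (0.99) and Hemk1 (0.96). Nudt16 and Hemk1 lie on chromosome 9, as does Rpl29, and 0 of the 20 closest genes lay on chromosome 1, the chromosome of Gm8210 itself. Nudt16, a nudix hydrolase, ran from 17.6 to 94.7 CPM with a gap of 1.16. For Rpl29, 12 of the 20 closest genes were on chromosome 9. Fhl2, which spans Gm8210, stood at 0.164 to 1.31 CPM (r = 0.36).

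Clba1 was most like Ckb (r = 0.97), the brain-type creatine kinase on the same chromosome 12, and like Tubg1 (0.95) and Scimp (0.91) on chromosome 11. Ckb ran from 62.9 to 357 CPM with a step of its own and was high in the same 2 libraries. With 2 high libraries, r with Clba1 rests on those 2, and 233 genes beyond its neighbourhood reached an absolute r of 0.8, more than for any other of the 9 genes.

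Cadm1 was most like Wnt2 (r = 0.91), Vsig4 (0.88) and Ocln (0.86), on chromosomes 6, X and 13. Vsig4, a receptor of resident macrophages, ran from 67.6 to 225 CPM and split the libraries as Cadm1 did. Chst10 was most like Mrnip (0.90), Nrbf2 (0.88) and Haghl (0.86), and Klhdc4 like Atp6v0c (0.87), Cfap20 (0.86) and Fastk (0.86). Atp6v0e2 was most like Wdr89 (0.86), Kctd9 (0.86) and Tcaf1 (0.80), the last on its own chromosome 6. All genes named for Chst10, Klhdc4 and Atp6v0e2 had gaps of at most 0.32, so none of them stepped as widely as the gene it resembled.

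Among genes averaging at least 1 CPM with starts within 500000 bases, an absolute r of 0.8 was reached by 4 of 44 around Rps18, 3 of 33 around Rps2, 3 of 17 around Clba1 and 1 of 41 around Gdpd3. It was reached by 0 of 16 around Atp6v0e2, 0 of 5 around Klhdc4, 0 of 4 around Gm8210 and 0 of 2 around Chst10, and Cadm1 had 0 such genes that close. Elsewhere in the genome the share at that r was 0.611% for Rps18, 0.166% for Rps2, 2.03% for Clba1 and 0.0524% for Gdpd3. Genes on 1 chromosome are not independent of each other, so these shares are given without a test.

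**Figure D5:**
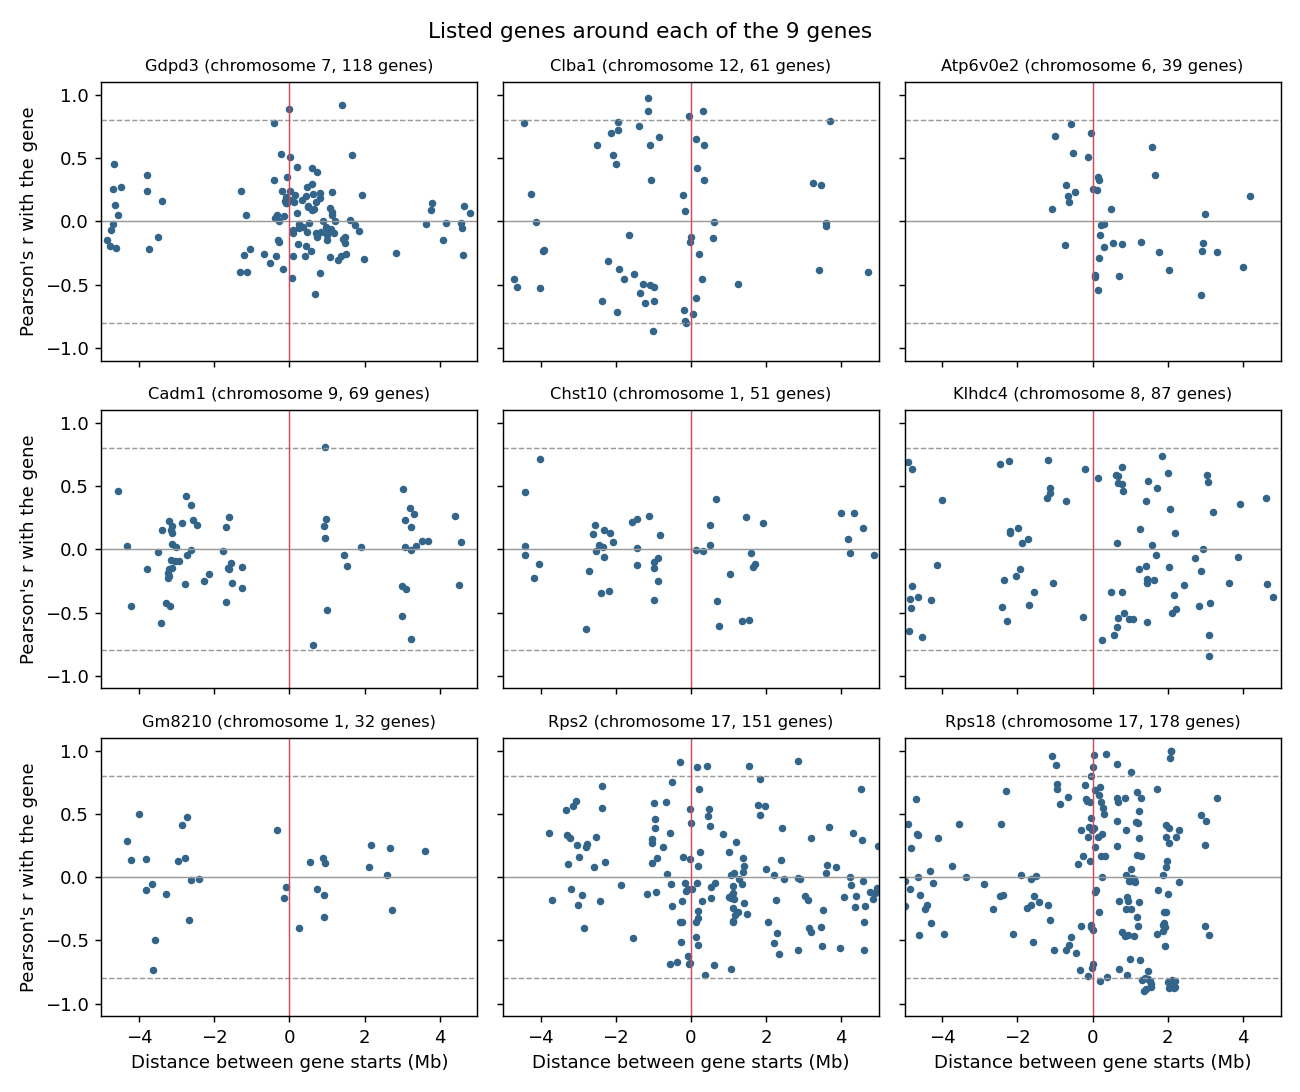
Pearson's r over 12 libraries between each of the 9 genes and every gene averaging 1 CPM or more whose start lies within 5 Mb (horizontal axis, distance in Mb; red line, the gene itself; dashed lines, r of 0.8 and -0.8). Points beyond the dashed lines are most frequent for Rps18, and Gm8210, Chst10 and Atp6v0e2 have none.

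Outside Rpl29, for which no family list was used, no gene of the lists of relatives had a gap of 1 log2 unit, over 3 other glycerophosphodiester phosphodiesterases, 4 N-acylethanolamine enzymes, 9 clathrin and AP-1 partners, 9 V-ATPase V0 subunits and accessory proteins, 6 nectin and nectin-like adhesion molecules, 6 carbohydrate sulfotransferases, 5 kelch domain proteins and 31 small-subunit ribosomal proteins. The widest was 0.62, in Rps28, whose start is 128962 bases from that of Rps18. Per kilobase of transcript, Cadm1 stood at 13.2 to 45.0 CPM per kb in its 8 high libraries and at 1.84 to 2.38 in its 4 low ones. Pvr, a nectin-like relative, ran from 5.64 to 11.5, between the levels of Cadm1. Atp6v0e2 reached at most 9.39 CPM per kb, where Atp6v0d2 ran from 386 to 599. Gde1 ran from 48.3 to 106 CPM per kb, and Gdpd3 from 1.83 to 132.

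In the family lists, genes passed edgeR's quasi-likelihood test (Benjamini-Hochberg adjusted p under 0.05 over all genes) only for diet in WT, when all 12 libraries were fitted. There 9.5% of all genes were called higher and 11.8% lower. Of the 31 other small-subunit genes 7 rose and 0 fell, with a median log2 fold change of 0.48 over the 31 against -0.03 over all genes. Their summed level was 3151, 3125 and 4738 CPM in WT chow and 5070, 4627 and 5281 CPM in WT HFD. WT chow replicates 1 and 2, the low ones, had the highest rho of the length trend (0.66 and 0.70). In WT HFD rho had the opposite sign, from -0.47 to -0.13. The median transcript length was 878 bases over the 31 genes and 3042.5 over 10922 genes. The part of the length trend in the rise was not tested. The number that rose was 0 without WT chow replicate 1 or 2 or WT HFD replicate 1 or 3. In those fits 1.05%, 2.59%, 3.73% and 0.778% of all genes were called in either direction. It was 2 without WT HFD replicate 2, meKO chow replicate 1 or meKO chow replicate 2 (13.6%, 18.0% and 18.7% of all genes). It was 4 without meKO chow replicate 3 (19.4%), 12 without meKO HFD replicate 2 (25.0%) and 26 without WT chow replicate 3 (39.9%). In that last fit 6 of the 31 rose for genotype on chow, where 20.6% of all genes were called in either direction. A count of rises is unlike that share, and nothing is read from it.

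In the same contrast 1 clathrin or AP-1 partner rose and 3 fell, and of the V-ATPase list 2 rose and 1 fell. Gde1 rose, Chst15 fell, and of Nectin4 and Pvr 1 rose and 1 fell. Of these calls, that of the Gde1 list alone was made in every fit that left out a library. The clathrin, V-ATPase, nectin and sulfotransferase lists each had 0 calls without WT chow replicate 1 or 2 or WT HFD replicate 1 or 3. In those fits 1.05%, 2.59%, 3.73% and 0.778% of all genes were called, against 21.3% with all 12 libraries. The kelch and N-acylethanolamine lists had 0 calls, and 1 each without WT chow replicate 3, where 39.9% of all genes were called.

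Contrasts between groups were fitted across all genes and are given for the 9 genes as a description, because the same libraries chose them. By edgeR 0 of 9 genes were called for genotype on chow, genotype on HFD, diet in WT, diet in meKO or the genotype by diet interaction, where 0.081%, 0.081%, 21.3%, 0.105% and 0.0162% of all genes were called. At an unadjusted p under 0.05 the numbers were 2, 4, 1, 1 and 1. The share of all genes at that unadjusted cut was not computed, and the shares at adjusted p do not compare with these numbers, so nothing is read from them. DESeq2 called 2, 4, 1, 1 and 0 of the genes, and 5.54%, 0.43%, 28.5%, 1.84% and 0.122% of all genes with an adjusted p. For limma-voom the counts were 0, 0, 1, 0 and 0, and the shares 0.0162%, 0.0405%, 20.4%, 0.0729% and 0.0162%. With 1 library left out, the edgeR share of all genes ran from 0.0162% to 20.6% for genotype on chow and from 0.0243% to 0.13% on HFD. It ran from 0.778% to 39.9% for diet in WT, from 0.0081% to 1.09% for diet in meKO and from 0.0081% to 0.454% for the interaction. The highest share for both genotype on chow and diet in WT came without WT chow replicate 3, and the lowest for diet in WT without WT HFD replicate 3. The standard errors of the 9 genes ran from 0.52 to 1.96 log2 units in the 4 simple contrasts, against a median of 0.165 over all genes.

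Klhdc4 had log2 fold changes, meKO over WT, of 2.41 ± 0.56 on chow (SE; edgeR adjusted p = 0.103) and, on HFD, of 2.30 ± 0.55 (adjusted p = 0.441). For Gm8210 the chow value was -2.18 ± 0.65 (adjusted p = 0.138) and the HFD value -3.69 ± 0.68 (adjusted p = 0.200), and HFD over chow in WT gave 1.87 ± 0.63 (adjusted p = 0.0612). Clba1 had 3.65 ± 0.86 (adjusted p = 0.441) for genotype on HFD and 3.90 ± 0.88 (adjusted p = 0.140) for diet in meKO. Rps18 had 4.03 ± 1.21 (adjusted p = 0.777) for genotype on HFD. Gdpd3 and Atp6v0e2, with both levels in every group, had standard errors of 1.75 to 1.96 in the simple contrasts. Contrasts that share a group share its libraries. All standard errors given here were worked back from edgeR's F statistic, as the absolute log2 fold change over the square root of F.

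Leaving out 1 library decided several of these calls. Without WT chow replicate 1, the 1 WT library low for Gm8210, edgeR called Gm8210 for genotype on chow (adjusted p = 9.04e-05), genotype on HFD (4.13e-07) and diet in WT (0.0157). In that fit 0.0405%, 0.13% and 1.05% of all genes were called in these contrasts. Without meKO HFD replicate 1, the lone low library of its group for Clba1 and Klhdc4, Clba1 was called for diet in meKO (1.97e-06) and for the interaction (2.17e-04), and Klhdc4 for genotype on chow (2.6e-05) and, with Clba1, on HFD. There 1.09% of all genes were called for diet in meKO, 0.0405% for the interaction, 0.13% for genotype on chow and 0.0891% on HFD. Both libraries stand apart by the levels that chose the genes. Leaving them out narrows the spread of these genes by construction, so nothing is read from these calls. Without WT chow replicate 3, where 20.6% of all genes were called for genotype on chow and 39.9% for diet in WT, Klhdc4 passed on chow (0.0497) and Gm8210 in the WT diet contrast (0.0217). Over all 20 alternatives, edgeR, DESeq2 and voom included, the adjusted p of Gm8210 ran from 9.04e-05 to 0.453 for genotype on chow, from 4.13e-07 to 0.769 on HFD and from 0.0157 to 0.163 for diet in WT. That of Klhdc4 ran from 2.6e-05 to 0.404 on chow. For Clba1 it ran from 1.97e-06 to 0.462 for diet in meKO and, over 19 alternatives, from 2.17e-04 to 0.999 for the interaction. Rps18 passed for genotype on HFD in edgeR with only those groups fitted (adjusted p = 0.0226) and in DESeq2 (0.0319). Without meKO chow replicate 2, 0 of 9 genes were called in any of the 5 contrasts. In that fit 0.0324% of all genes were called for genotype on chow, 0.0973% on HFD and 18.7% for diet in WT. The shares were 0.105% for diet in meKO and 0.0162% for the interaction, so nothing is read from the 0.

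Counted by overlap alone, the groups did not overlap for 1 of the 9 genes for genotype on chow (Klhdc4), 4 for genotype on HFD (Cadm1, Gm8210, Rps2, Rps18), 3 for diet in WT (Clba1, Klhdc4, Gm8210) and 3 for diet in meKO (Clba1, Chst10, Rps2). Over all genes the shares were 17.1%, 10.3%, 39.3% and 19.7%, and nothing is read from the comparison, for the reason given above.

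Other measures were set beside the steps. For the 9 genes against 10 summed lists of cell type markers and the length trend, 99 pairs in all, the ranges in a gene's low and high libraries overlapped in 98. The exception was the neutrophil list (5 of 7 markers listed, Ly6g and Camp not), at 106 to 112 CPM in the 2 libraries high for Clba1 and 53.4 to 97.6 CPM in the others. In that list Mmp8 ran from 32.1 to 69.7 CPM, Retnlg from 3.43 to 33.6 and S100a8 from 7.81 to 26.4. S100a9 (0.196 to 4.69 CPM) and Cxcr2 (0.165 to 1.01 CPM) were low. Klhdc4 had the largest absolute r, 0.85 with the type 1 dendritic cell list (8 of 8 listed) and 0.83 with the neutrophil list. Most of the dendritic sum came from Cd24a (63.1 to 146 CPM) and Wdfy4 (27.2 to 62.6 CPM). The defining Xcr1 (0.628 to 2.08 CPM), Clec9a (1.14 to 2.88), Itgae (0.448 to 0.876) and Zbtb46 (0.259 to 1.34) were low. Batf3 ran from 3.85 to 6.43 CPM and Flt3 from 2.69 to 7.09. In the low and high libraries of Klhdc4 the dendritic list summed to 126 to 146 and 143 to 188 CPM. By group that list ran from 131 to 144 CPM in WT chow, 126 to 146 in WT HFD, 143 to 181 in meKO chow and 138 to 188 in meKO HFD. Cadm1 had an r of 0.72 with the resident large macrophage list (5 of 5 listed), at 39.1 to 58.7 CPM in its low and 52.9 to 164 CPM in its high libraries. In that list Prg4 ran from 13.3 to 95.3 CPM, Timd4 from 6.69 to 31.0 and Icam2 from 9.79 to 26.6. Selp ran from 2.47 to 17.4 CPM and Gata6 from 1.35 to 4.31. The part of these cells in the levels was not tested.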

How the data were processed

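The authors deposited a table of raw counts per gene (Entrez identifiers and symbols) for 12 libraries of macrophage RNA, prepared with Illumina's TruSeq protocol per the labels' protocols. The submitters' processing notes name mm10 and DESeq2; aligner, counter and strand setting are not given in the sources used here. Rows without a symbol (186, 0.440% of counts) stayed in the table. Groups came from the titles; replicate numbers follow sample order.

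The 9 genes and the family lists were chosen with earlier results of these data known. Counts were fitted with edgeR 4.0.16 (R 4.3.3; TMM, filterByExpr, robust quasi-likelihood F test, two-sided, 4 group means over 12 libraries, Benjamini-Hochberg over 12339 genes); DESeq2 1.42.0 and limma-voom (limma 3.58.1) were alternatives. The fits were tested on simulated counts that shared a single spread for all genes and were shifted in WT HFD only. Genes with separate levels within a group were not simulated, so that test does not cover the 9 genes. Named besides the 9 genes were the 3 genes with the highest r, the nearest gene on each side, family genes of highest level, Prkce and Lyz2; Rpl29, Rps28, H2-K1, called family genes and the overlapping genes were named after their values or positions were seen. Positions are RefSeq's (GRCm38.p6), found for 12100 genes; sequences are GENCODE M21's.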

Additional observations from a re-analysis of the deposited data

How the results depend on the processing

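The number of the 9 genes called moved with the setting, from 0. For genotype on chow DESeq2, which called 5.54% of all genes there against edgeR's 0.081%, gave 2 and a fit of only the groups compared 1 (0.0406%). For genotype on HFD DESeq2 (0.43% of all genes) gave 4, non-robust dispersions 1 (0.0891%) and only the groups compared 2 (0.276%). For diet in WT, DESeq2, limma-voom and non-robust dispersions each gave 1 (28.5%, 20.4% and 20.7% of all genes). For diet in meKO DESeq2 gave 1 (1.84%). Leaving out each library in turn gave 0 to 1 for genotype on chow (0.0162% to 20.6% of all genes) and 0 to 2 on HFD (0.0243% to 0.13%). It gave 0 to 1 for diet in WT (0.778% to 39.9%), diet in meKO (0.0081% to 1.09%) and the interaction (0.0081% to 0.454%). Requiring 10 counts in every library left 7 of the 9 genes to test. The number of the 31 other small-subunit genes called for diet in WT was 7, where 21.3% of all genes were called. Under alternatives chosen after seeing the data it was 11 with DESeq2 (28.5% of all genes) and 3 with library totals (22.2%). With each library left out it was 0 to 26 (0.778% to 39.9%). The cause of each move was not tested.

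The count of genes with a gap of at least 1 log2 unit stayed between 7 and 9 over 18 settings; 7 of the genes changed the side of 0 libraries in any of them. Clba1 and Chst10 lost their step, at 0.24 and 0.43, with 3 libraries on each side, without meKO HFD replicate 2, and without meKO HFD replicate 3 (Clba1) or WT chow replicate 1 (Chst10). With 2 CPM added before the logarithm the gap of Atp6v0e2 was 2.14 and that of Chst10 1.21. Depth limits the low level of Atp6v0e2 (8 to 20 counts) and Chst10 (6 and 11 counts). No paired analysis was possible because titles and columns carry no replicate numbers shared between groups.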
